A study of Mus musculus with 4 samples.

Results

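The genes described here are 10 imprinted regulators of fetal growth, H19, Igf2, Mest, Peg3, Dlk1, Meg3, Cdkn1c, Grb10, Plagl1 and Igf2r. They were chosen by name, and every listed exon that GENCODE assigns to them was taken, which gave 203 of the 234718 exons and 10 of the 22835 genes with a listed exon. The study asked whether the M isoform of Mitf, the melanocyte form of this transcription factor, can turn mouse embryonic fibroblasts (MEFs) into melanocyte-like cells, and it sequenced 1 poly(A) RNA library for each of 4 conditions. The library labelled MEF came from wild-type MEFs at passage 3. Its column was matched by name but does not hold the MEF values printed with the paper, so comparisons with MEF describe that column. Dox (-) and Dox (+) came from Mitf knock-in MEFs at passage 5, which carry the M2rtTA transactivator at ROSA26 and a tetO-driven M-Mitf downstream of Col1a1, both without doxycycline (Dox) and with Dox for 6 days. The knock-in MEFs were grown from chimeric embryos made with a single targeted embryonic stem cell clone that also carried mCherry and puromycin resistance, so host cells can be present unless they were removed. The genotype, the passage and the origin of MEF and the knock-in cultures cannot be told apart. Nor can Dox and the Mitf it induces be told apart, since no library without the transgene received Dox. The library of primary melanocytes was not analysed here, because no column of values carried its name.

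An imprinted gene is read mainly from the copy inherited from a single parent, and the silent copy is set by DNA methylation laid down in the germ line. Igf2, Mest, Peg3, Dlk1 and Plagl1 are read from the paternal copy, and H19, Meg3, Cdkn1c and Igf2r from the maternal copy. Grb10 is read from the maternal copy in most tissues and from the paternal copy in neurons. Many of these genes are high in the fetus and decline after birth, and mesenchymal cells such as MEFs are among those that express them. The parental copy cannot be read from exon values, so everything below is the total from both copies.

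Values are RPKM, the reads on an exon divided by its length in kilobases and by the aligned reads of the library, so that levels can be set side by side per length. The level of a gene is the RPKM of its highest exon, as the study took it. Beside it, a level over exons sharing no base is given, the reads on a set of non-overlapping exons divided by their summed length. Multiplying by exon length and depth returned whole reads for 96.7% to 97.0% of the low values, at depths of 45000000 reads in MEF and Dox (-) and 44000000 in Dox (+). With 1 library per condition there are no replicates and no p-values, and every interval below is a 95% counting interval that leaves out variation between cultures. A gene was called different above a 4-fold ratio when it exceeded 10 RPKM in either library of the pair. Mitf had 1.52 RPKM in MEF, 30.8 RPKM in Dox (-) and 1544 RPKM in Dox (+). All 12 fibroblast markers exceeded 10 RPKM in both knock-in libraries and 11 did in MEF. They summed to 55419 RPKM in MEF, 71760.1 RPKM in Dox (-) and 44440.1 RPKM in Dox (+). In Dox (+) against Dox (-), 8 of the 12 were lower and 4 higher. Of these markers 4 fell past 4-fold, Col1a1, Col1a2, Col3a1 and Lum, beside 5.41% of all genes. The 14 macrophage markers summed to 59.8 RPKM in MEF, 16255 RPKM in Dox (-) and 564 RPKM in Dox (+), and all 14 were more than 4-fold lower in Dox (+) than in Dox (-). In MEF 8 of the 14, among them Adgre1 and Ptprc, were below 1 RPKM. In such bulk RNA fewer cells of a type and less RNA per cell cannot be told apart. The part of the fibroblast and macrophage markers in the results below was not tested.

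The promoters below are shown first, because MITF binds the hexamers CACGTG and CATGTG and Dox (+) is the library with induced Mitf. All 10 genes were lower in Dox (+) than in Dox (-), and whether MITF acts on them was not tested. Each line holds the 250 bases upstream of a RefSeq start site on GRCm38.p6, read 5′ to 3′ on the strand of the gene, with every match to either hexamer on either strand in capitals (CACGTG reads the same on both strands, CATGTG reads CACATG on the other, and the motifs did not overlap). RefSeq windows were found for 8 of the 10 genes.
Igf2r, minus strand, chr17:12769707-12769956: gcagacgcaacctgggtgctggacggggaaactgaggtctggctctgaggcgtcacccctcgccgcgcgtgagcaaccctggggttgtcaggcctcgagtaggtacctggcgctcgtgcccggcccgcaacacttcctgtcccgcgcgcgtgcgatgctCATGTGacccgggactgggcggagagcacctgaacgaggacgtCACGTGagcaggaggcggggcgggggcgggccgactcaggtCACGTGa
Plagl1, plus strand, chr10:13090582-13090831: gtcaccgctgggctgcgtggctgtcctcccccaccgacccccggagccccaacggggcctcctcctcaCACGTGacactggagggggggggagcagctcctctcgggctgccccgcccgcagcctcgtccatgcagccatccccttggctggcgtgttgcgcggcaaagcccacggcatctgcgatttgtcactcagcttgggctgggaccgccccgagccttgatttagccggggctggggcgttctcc
Mest, plus strand, chr6:30737800-30738049: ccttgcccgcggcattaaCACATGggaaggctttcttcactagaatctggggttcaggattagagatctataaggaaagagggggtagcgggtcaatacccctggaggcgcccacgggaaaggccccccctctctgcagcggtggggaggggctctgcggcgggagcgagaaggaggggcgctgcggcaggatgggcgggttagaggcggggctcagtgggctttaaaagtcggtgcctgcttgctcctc
Meg3, plus strand, chr12:109540746-109540995: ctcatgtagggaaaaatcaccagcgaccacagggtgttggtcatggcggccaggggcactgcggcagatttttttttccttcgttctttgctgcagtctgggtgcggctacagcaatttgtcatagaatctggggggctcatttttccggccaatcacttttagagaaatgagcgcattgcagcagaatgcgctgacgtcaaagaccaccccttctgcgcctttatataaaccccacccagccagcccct
Igf2, minus strand, chr7:142657497-142657746: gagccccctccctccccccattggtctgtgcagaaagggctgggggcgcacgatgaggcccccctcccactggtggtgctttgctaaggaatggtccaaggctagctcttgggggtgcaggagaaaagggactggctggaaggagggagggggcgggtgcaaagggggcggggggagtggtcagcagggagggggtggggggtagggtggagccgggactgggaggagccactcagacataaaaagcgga

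Igf2r held 3 matches, which began 91, 48 and 7 bases before its start site, Plagl1 held 1 at 182 bases and Mest 1 at 232 bases. The Meg3 and Igf2 windows printed held none. Counting 50 bases after the start as well, 5 of 15 windows and 4 of the 8 genes held a match, the fourth gene being Meg3 at an internal start site. The 5 windows include those of Mest from 30737800 and from 30737803, which hold the same match. Among all 32851 such windows, 7.2% held CACGTG, 14.2% held CATGTG and 20.4% held either. These shares are per window, genes have unequal numbers of windows, and no share per gene was computed. A match is a string of letters and says nothing of binding in these cells.

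In Dox (+) against Dox (-), every member was lower, and 2 of the 10 fell past 4-fold. These were Mest, an enzyme-like protein of the alpha/beta hydrolase fold that is abundant in fetal mesoderm, and Meg3, a long noncoding RNA of the Dlk1-Dio3 domain. Mest was 13.8-fold lower and Meg3 13.6-fold lower. Of all 13307 genes tested, 5.41% were more than 4-fold lower, 1.64% were more than 4-fold higher, and 37.4% were lower by any amount. The median log2 fold change, computed with a pseudocount of 1 RPKM, was -1.69 over the members and 0.23 over all genes. Over exons, 53 of the 192 above 10 RPKM were more than 4-fold lower, or 27.6% against 4.94% of all 139093 exons, and none was more than 4-fold higher against 1.28%. The 53 were 28 exons of Meg3, 14 of Mest, 7 of Igf2 and 4 of Peg3. Exons of a gene share its transcripts and are not replicates. Listed exons can also overlap and count the same reads, and the 28 of Meg3 reduce to 7 that share no base. Counts of listed exons here and below include such overlaps.

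In Dox (-) against MEF, 2 members rose past 4-fold and none fell. Igf2, the fetal growth factor, was 90.3-fold higher on its highest exon (51.5 to 175) and 33.2-fold higher over exons sharing no base, and Plagl1, a zinc finger transcription factor, was 7.33-fold and 3.72-fold higher by the same measures. Of 13234 genes, 8.26% were more than 4-fold higher and 1.21% more than 4-fold lower. The members split, with 6 higher and 4 lower, while 49.1% of all genes were lower. Over exons, 43 of 193 (22.3%) were more than 4-fold higher against 9.38% of all exons, and none was more than 4-fold lower against 1.00%.

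In Dox (+) against MEF, Igf2 was 24.8-fold higher on its highest exon (14.0 to 48.6) and 7.02-fold higher over exons sharing no base, while Mest was 33.6-fold and Meg3 7.76-fold lower. These 3 were the members past 4-fold, among 12941 genes of which 6.55% were higher and 3.40% lower by that margin. In all 8 members were lower, as were 36.7% of all genes. Of 187 member exons 15 (8.02%) were more than 4-fold higher and 44 (23.5%) more than 4-fold lower, against 8.79% and 3.03% of all exons. The 3 comparisons share libraries, so they are given side by side and not as separate evidence.

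**Figure D1:**
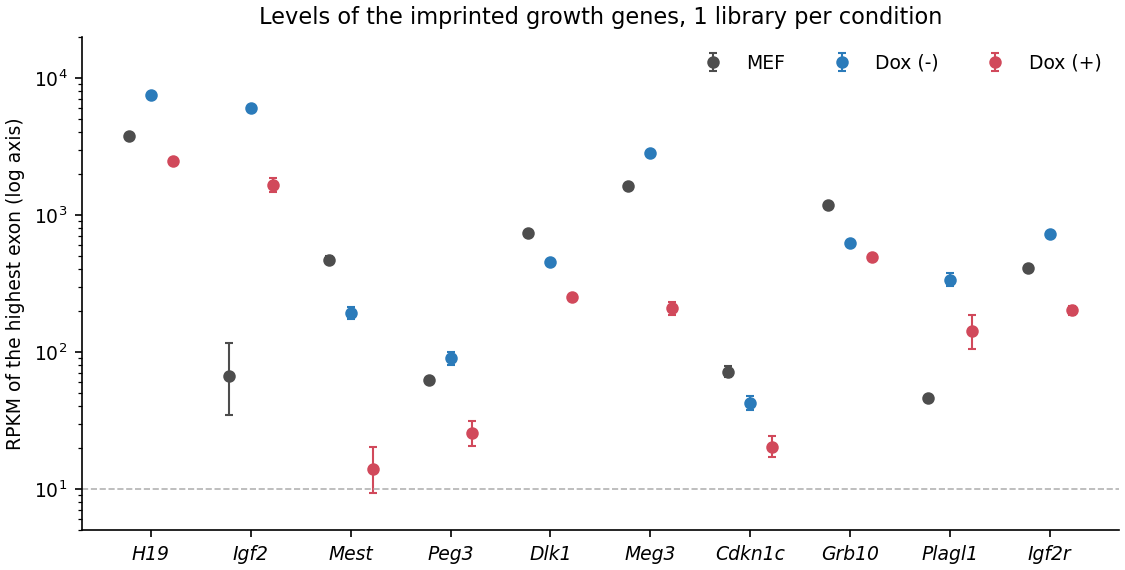
RPKM of the highest exon of each gene on a log axis in MEF (grey), Dox (-) (blue) and Dox (+) (red), with 95% Poisson counting intervals and the 10 RPKM threshold dashed. In all 10 genes the Dox (+) point lies below the Dox (-) point, and Igf2 shows the widest gap between MEF (66.7) and Dox (-) (6022).

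H19 and Igf2 lie next to each other on chromosome 7 and share enhancers, H19 giving a noncoding RNA and Igf2 a growth factor. H19, on the minus strand of mm10 from 142575529 to 142578143, had 3783 RPKM in MEF, 7519 RPKM in Dox (-) and 2491 RPKM in Dox (+). These levels ranked 134, 40 and 282 among all genes. By its highest exon H19 was thus a leading transcript in each library. Over exons sharing no base it had 660.1 RPKM in MEF, 1226 RPKM in Dox (-) and 418 RPKM in Dox (+). On the highest exon its Dox (-) level was 1.99-fold that of MEF (interval 1.91 to 2.06) and 3.02-fold that of Dox (+) (2.89 to 3.16). All 14 listed exons moved together, between 2.59-fold and 3.23-fold lower in Dox (+) than in Dox (-). The highest was a 24-base exon, whose RPKM is raised because any read that touches it counts in full.
H19 highest exon, minus strand, chr7:142576507-142576530: aacaccatgggctggcgccttgtc

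H19 is also the host of Mir675, whose hairpin lies in the listed 1315-base first exon. The mature forms are shown with the seed, bases 2 to 8, in capitals, because the host exon was measured here while the processed miRNA was not.
miR-675-5p: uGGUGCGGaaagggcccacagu
miR-675-3p: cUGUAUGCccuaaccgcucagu
The 2 arms do not share a seed. The shortest listed exon around them, of 617 bases, had 584 RPKM in MEF, 1075 RPKM in Dox (-) and 387 RPKM in Dox (+), the same order as the rest of H19.

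Igf2, on the minus strand from 142650766 to 142666816, had 66.7 RPKM in MEF, 6022 RPKM in Dox (-) and 1653 RPKM in Dox (+) on its highest exon. That exon has 4 bases and held 12, 1084 and 291 reads, so the MEF level has an interval of 34.4 to 116 RPKM. Over all exons that share no base, the RPKM was 15.7, 522 and 110.5. The direction was the same on every exon with enough reads, since all 16 exons with at least 20 reads in the pair were 29.7-fold to 90.3-fold higher in Dox (-) than in MEF. Dox (+) lay between, 3.64-fold below Dox (-) on the highest exon (3.20 to 4.16) and 4.73-fold below it over exons sharing no base, where Igf2 passes the threshold. Of the 16 exons, 7 were more than 4-fold lower in Dox (+).

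The first exons of Igf2 differed in level, though exon values alone do not show which start sites were read. The exon from 142657388 to 142657496, which begins at the start site whose upstream sequence is printed above, held 85 reads in MEF, 3616 in Dox (-) and 959 in Dox (+), at 17.3 RPKM in MEF and 737 RPKM in Dox (-). The exon upstream of it, from 142658364 to 142659489, had 0.632, 28.2 and 5.89 RPKM in the same order. It is 1126 bases long and held 32, 1430 and 292 reads. The exon of 374 bases further upstream had 0.119, 10.0 and 3.04 RPKM, and the outermost of 41 bases had 0.542, 3.25 and 0.554 RPKM, from 1, 6 and 1 reads. The exon at the printed start site thus had the highest RPKM of these first exons in each library. Of its 17 listed exons, 13 overlap the genes Gm49394 on its strand or Igf2os on the other, and the counting is not stated to use strand, so their reads cannot be told apart.

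The balance of the neighbours differed between MEF and the knock-in cultures. The Igf2 level was 0.0176 times that of H19 in MEF, 0.801 times in Dox (-) and 0.664 times in Dox (+). Over exons sharing no base these ratios were 0.0238, 0.426 and 0.264. H19 was within 2-fold of its MEF level in both knock-in libraries, so the difference in balance came with the Igf2 level.

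Igf2r, the receptor that carries IGF2 to the lysosome and so limits it, lies on the minus strand of chromosome 17 from 12682406 to 12769664. It had 411 RPKM in MEF, 721 RPKM in Dox (-) and 201 RPKM in Dox (+) on a 70-base exon near its 3′ end. All 50 exons were higher in Dox (-) than in MEF and all 50 were lower in Dox (+) than in Dox (-), by 1.91-fold to 3.59-fold. Dox (+) and MEF could not be ordered, since 29 exons were higher in Dox (+) and 21 lower. The sign ran with position along the transcript. The 16 exons nearest the 5′ end had a median of 68.0 RPKM in MEF, 241 RPKM in Dox (-) and 109.7 RPKM in Dox (+), and the 16 nearest the 3′ end had 193, 352 and 120.1 RPKM. Dox (+) was thus 1.61-fold above MEF at the 5′ end and 1.61-fold below it at the 3′ end.

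A slope of this kind was also seen over all genes. For this the exons of a gene were split by order into 3 sets of equal size. Over 5454 genes with at least 9 exons that share no base, the median ratio of the 3′ set of exons to the 5′ set was 1.87 in MEF, 1.46 in Dox (-) and 1.23 in Dox (+). MEF was thus the library most weighted to 3′ ends, and its part in the member folds was not tested. From the 5′ to the 3′ set of exons the ratio of Dox (+) to MEF was lower in Plagl1, from 4.97 to 1.74, and in Peg3, from 0.786 to 0.288. Over the 5454 genes this ratio changed by a median factor of 0.697 (quartiles 0.548 and 0.847). The changes in Igf2r, Plagl1 and Peg3 were steeper than the lower quartile.

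**Figure D2:**
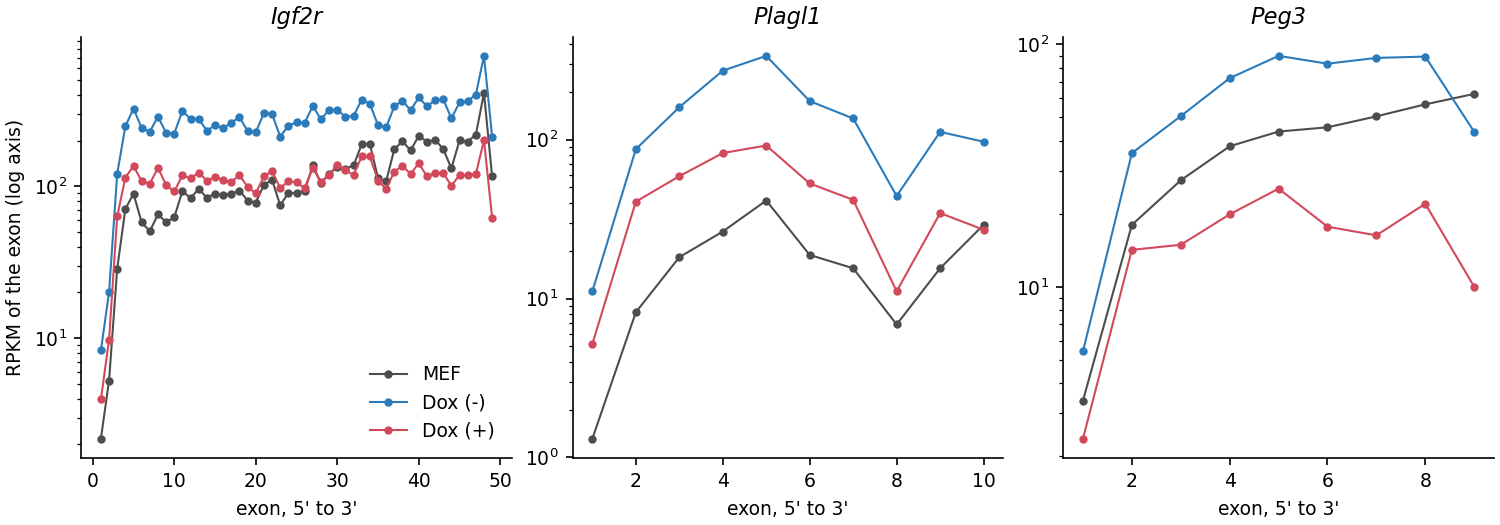
RPKM on a log axis of the exons that share no base, numbered 5′ to 3′, for Igf2r, Plagl1 and Peg3 in MEF (grey), Dox (-) (blue) and Dox (+) (red). Dox (-) lies above Dox (+) at each exon, whereas MEF climbs towards the 3′ end and crosses Dox (+) in Igf2r and Plagl1 and Dox (-) at the last exon of Peg3.

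Meg3 and Dlk1 belong to the Dlk1-Dio3 domain on chromosome 12, Meg3 as a maternally read noncoding RNA and Dlk1 as a paternally read membrane protein related to Notch ligands. Meg3, on the plus strand from 109541001 to 109571726, had 1619 RPKM in MEF, 2837 RPKM in Dox (-) and 209 RPKM in Dox (+). The highest exon has 34 bases and held 2477, 4341 and 312 reads. The fall from Dox (-) to Dox (+) was 13.6-fold (12.1 to 15.3), and all 28 listed exons fell by between 13.3-fold and 30.4-fold. Against MEF all 28 were 6.70-fold to 15.3-fold lower in Dox (+).
Meg3 highest exon, plus strand, chr12:109549519-109549552: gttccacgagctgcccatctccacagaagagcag

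The size of the difference varied along Meg3. The exon of 99 bases at the annotated start had 24.2 RPKM in MEF, 104 RPKM in Dox (-) and 3.44 RPKM in Dox (+). The terminal exon of 329 bases had 745, 1068 and 48.6 RPKM. Dox (-) was therefore 4.29-fold above MEF at the first exon and 1.43-fold above it at the last. This was the direction of the slope seen over all genes, but the change was larger. Over the 5454 genes the ratio of Dox (-) to MEF changed by a median factor of 0.817 from 5′ to 3′ (quartiles 0.670 and 0.965). That factor compares sets of exons, whereas the Meg3 values are from 2 single exons. A shorter listed exon of 245 bases contains miR-1906 and had 488 RPKM in MEF, 937 RPKM in Dox (-) and 67.9 RPKM in Dox (+). The hairpin of Mir770 lies only in the listed exon of 13087 bases, at 28.7, 50.6 and 2.79 RPKM. That exon held 16918, 29775 and 1607 reads. The listed exon of 3043 bases at its start held 7047, 11976 and 642, and the terminal exon of 329 bases held 11031, 15806 and 703. The hairpin lies between these shorter exons, so the RPKM of the long exon is not a level at the hairpin.
miR-1906: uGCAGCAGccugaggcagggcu
miR-770-5p: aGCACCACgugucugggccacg
miR-770-3p: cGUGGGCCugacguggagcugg

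Dlk1, on the plus strand from 109452823 to 109463336, had 734 RPKM in MEF, 453 RPKM in Dox (-) and 249.8 RPKM in Dox (+). Neither step passed 4-fold. Dox (-) was 1.62-fold below MEF (1.54 to 1.70) and Dox (+) was 1.81-fold below Dox (-) (1.70 to 1.93). The neighbours therefore parted, as Meg3 was higher and Dlk1 lower in Dox (-) than in MEF. The level of Meg3 was 2.21 times that of Dlk1 in MEF, 6.26 times in Dox (-) and 0.835 times in Dox (+), and 1.21, 3.51 and 0.392 times over exons sharing no base.

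Of the 22 Dlk1 exons with enough reads, 21 were lower in Dox (+) than in Dox (-) and a single exon was higher, which was picked out after its values were seen. It is a 50-base coding segment that annotated transcripts keep in the longer forms of Dlk1 and splice out in the shorter ones, and it is shown so that these forms can be told apart by sequence.
Dlk1 segment, plus strand, chr12:109459843-109459892: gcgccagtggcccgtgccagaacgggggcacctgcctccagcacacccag
The segment held 89 reads in MEF, 29 in Dox (-) and 64 in Dox (+). Its RPKM was 5.39% of that of the 131-base exon upstream in MEF (4.32 to 6.65), 2.84% in Dox (-) (1.90 to 4.10) and 11.6% in Dox (+) (8.92 to 15.0). Since the segment was chosen for its direction, the values are a description. In each library it was far below the exon upstream. Reads that touch both the segment and its flanks count for either, and the value rests on few reads. Reads spliced over the segment may also be counted on it, so the percents are not shares of the longer form.

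**Figure D3:**
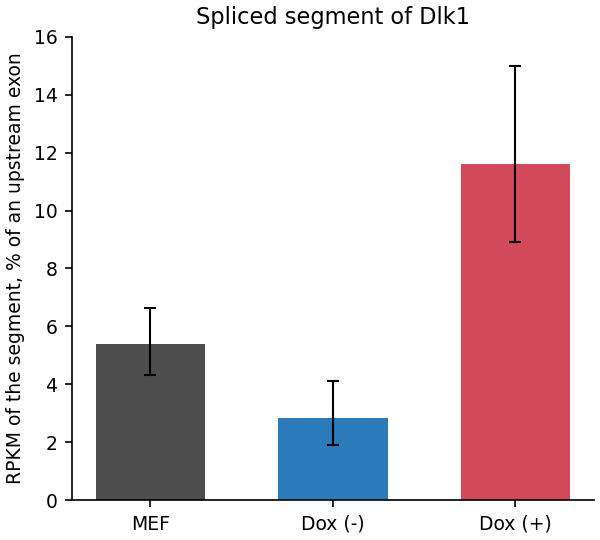
RPKM of the 50-base Dlk1 segment as a percent of the RPKM of the 131-base internal exon upstream, for MEF, Dox (-) and Dox (+), with 95% counting intervals as bars. The percent is lowest in Dox (-) at 2.84 and highest in Dox (+) at 11.6.

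Mest and Peg3 are paternally read genes that are high in fetal mesoderm. Mest, on chromosome 6 (30723547 to 30748465, plus strand), had 471 RPKM in MEF, 193 RPKM in Dox (-) and 14.0 RPKM in Dox (+), which is 997, 408 and 29 reads on its highest exon of 47 bases. It was the member with the largest fall against MEF, 33.6-fold (23.3 to 50.5), and 13.8-fold against Dox (-) (9.43 to 20.8). All 14 exons with enough reads in the knock-in pair fell by at least 10.6-fold. The start site printed above leads into an exon with 30, 16 and 2 reads, and reads were sparse at the 5′ end of this gene in all 3 libraries.
Mest highest exon, plus strand, chr6:30742528-30742574: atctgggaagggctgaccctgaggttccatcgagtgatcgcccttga

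Peg3, a zinc finger protein read from the minus strand of chromosome 7 from 6703892 to 6730431, had 62.5 RPKM in MEF, 89.7 RPKM in Dox (-) and 25.4 RPKM in Dox (+). All 9 exons were lower in Dox (+) than in Dox (-), by 2.30-fold to 5.39-fold, and 4 of them passed 4-fold. Over exons sharing no base Peg3 passed the threshold, 4.29-fold below Dox (-) and 5.66-fold below MEF. The order of Dox (-) and MEF depended on the exon. In Dox (-) the first 8 exons were higher than in MEF, whereas the last, of 7840 bases, had 62.5 RPKM in MEF, 43.6 RPKM in Dox (-) and 10.00 RPKM in Dox (+).

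Plagl1 and Cdkn1c restrain the cell cycle, Plagl1 as a transcription factor of a network of imprinted genes and Cdkn1c as the CDK inhibitor p57. Plagl1, on chromosome 10 (13060504 to 13131694, plus strand), had 46.0 RPKM in MEF, 337 RPKM in Dox (-) and 142 RPKM in Dox (+), on a different exon in each. On the 22-base exon with the highest Dox (-) value it held 41, 334 and 89 reads. There Dox (-) was 8.15-fold above MEF (5.88 to 11.6) and 3.67-fold above Dox (+) (2.90 to 4.69). All 21 exons were higher in Dox (-) than in MEF, 18 of them by more than 4-fold, and all 21 were lower in Dox (+) than in Dox (-). Over exons sharing no base, which weights the long 3′ exon, Dox (-) was 3.72-fold above MEF and did not pass, and Dox (+) was 1.06-fold above MEF.
Plagl1 exon, plus strand, chr10:13112934-13112955: agattttcatggcacctgaaag

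Cdkn1c had the lowest levels among the members in Dox (-) and stepped down across the libraries. It lies on the minus strand of chromosome 7 from 143458339 to 143461050 and had 71.9 RPKM in MEF, 42.5 RPKM in Dox (-) and 20.4 RPKM in Dox (+). These rest on 450, 266 and 125 reads. Dox (+) was 2.08-fold below Dox (-) (1.68 to 2.59) and 3.52-fold below MEF (2.88 to 4.33). All 4 listed exons had this order, and none passed 4-fold in any comparison. Of its 4 exons 2 overlap the antisense gene Gm44732.

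Grb10, an adaptor that damps insulin and IGF signalling, changed least between the knock-in libraries. It lies on the minus strand of chromosome 11 from 11930508 to 12038683 and had 1181 RPKM in MEF, 629 RPKM in Dox (-) and 490.2 RPKM in Dox (+). Dox (+) was 1.28-fold below Dox (-), with 14 exons lower and 6 higher. Among the 6, the exons of 69, 71 and 487 bases held identical reads, 210 in MEF, 169 in Dox (-) and 183 in Dox (+). The same reads may be counted on each, so these exons are not separate measures here or in the 5′ medians below. The exon at the main start, of 210 bases, held 234, 180 and 216 reads. The 6 exons nearest the 5′ end had medians of 66.7, 53.7 and 59.4 RPKM, while the 6 nearest the 3′ end had 970.0, 536 and 407 RPKM. Both knock-in libraries were below MEF on all 20 exons.

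**Figure D4:**
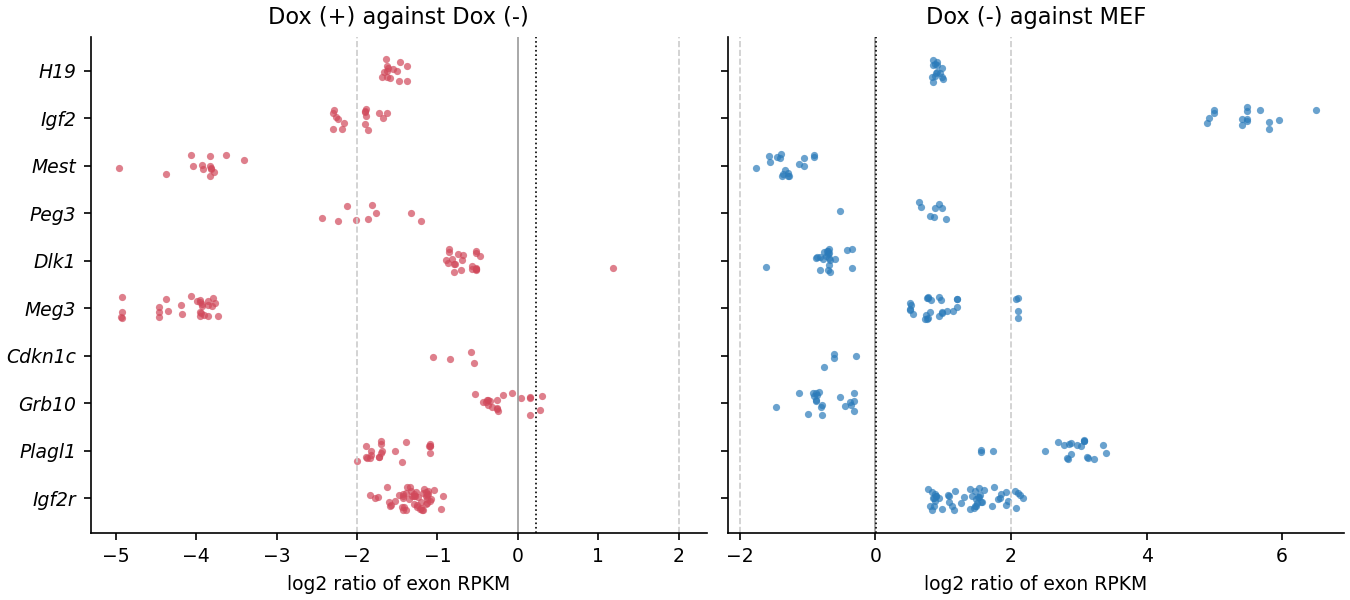
Log2 ratio of exon RPKM for each member exon with more than 3 reads in both libraries of the pair (1 point per exon), Dox (+) against Dox (-) on the left and Dox (-) against MEF on the right, with 4-fold limits dashed and the median log2 fold change over all genes dotted (0.23 and 0.01). On the left Mest and Meg3 lie past the lower limit with all exons shown and Dlk1 has a single exon to the right of 0, and on the right Igf2 lies past the upper limit with all exons shown.

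Ordered by level in Dox (-), the members ran H19, Igf2, Meg3, Igf2r, Grb10, Dlk1, Plagl1, Mest, Peg3 and Cdkn1c. The counting intervals of neighbours in this order did not overlap. The order depends on the measure. Over exons sharing no base H19 led with 1226 RPKM and Igf2 followed with 522 RPKM, Igf2r had 264 RPKM, Grb10 259.6 RPKM and Meg3 148 RPKM. For Meg3 that set holds the exon of 13087 bases, at 50.6 RPKM in Dox (-), and leaves out the shorter exons within it. The median listed exon of Meg3 had 812 RPKM in Dox (-). In Dox (+) H19 led with 2491 RPKM and Mest was last with 14.0 RPKM.

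Of the other genes listed as imprinted, 1 on the paternal list and 2 on the maternal list fell past 4-fold between the knock-in libraries. None rose, beside 5.41% lower and 1.64% higher among all genes. Whether each listed gene is imprinted in these cells was not measured. On the paternal list, 10 of the 21 with a listed exon were above 10 RPKM. Of these, 5 were lower and 5 higher, and 1 fell, with a median log2 fold change of -0.07. This was Slc38a4, an amino acid transporter, with 258 RPKM in MEF, 113 RPKM in Dox (-) and 15.9 RPKM in Dox (+). On the maternal list, 17 of 25 were above 10 RPKM, 7 were lower and 10 higher, and 2 fell, with a median of 0.08. Mirg, a noncoding RNA downstream of Meg3 in its domain, had 332, 225 and 37.6 RPKM, and Zim1, a neighbour of Peg3, had 11.4, 30.6 and 2.36 RPKM.

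Set against MEF, Nnat, Ddc, Dcn and Tfpi2 of these lists rose past the limit in Dox (-) and Asb4 fell. Among all genes 8.26% rose and 1.21% fell by that margin. Tfpi2, a protease inhibitor, had no read in MEF, 12.3 RPKM in Dox (-) and 10.3 RPKM in Dox (+). Dcn, a proteoglycan of the matrix, was 54.5-fold above MEF in Dox (-), at 1637 RPKM, and 24.0-fold above it in Dox (+), at 719.5 RPKM. The ankyrin repeat gene Asb4 had 25.1, 1.36 and 0.997 RPKM in MEF, Dox (-) and Dox (+). Ago2, a carrier of small RNAs, was 6.35-fold above MEF in Dox (+). In that comparison the paternal list had 1 gene higher and 1 lower, and the maternal list 3 higher and 3 lower. Among all genes the shares were 6.55% higher and 3.40% lower.

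Partners of IGF2 moved in both directions. Between the knock-in libraries 3 of 16 fell and 1 rose, beside 5.41% lower and 1.64% higher among all genes. Igf1, a growth factor also made by macrophages, had 31.4 RPKM in MEF, 488 RPKM in Dox (-) and 100.3 RPKM in Dox (+). Igfbp3, a binding protein of IGFs, had 14.8, 2173 and 180.3 RPKM, and Igfbp5 had 3.13, 353 and 28.2 RPKM. These 3 had the same order as Igf2, with Dox (-) highest and MEF lowest. Pappa2, a protease that frees IGF from binding proteins, had 3.70, 3.76 and 32.2 RPKM. Against MEF, 5 of 15 partners rose past the limit in Dox (-), beside 8.26% of all genes. Igfbp2 was 8.64-fold lower at 896 RPKM against 7741 RPKM, and 1.21% of all genes fell past the limit. The receptor Igf1r was not called in any comparison, at 113, 94.2 and 117 RPKM.

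None of 13 factors that maintain imprints passed 4-fold between the knock-in libraries, beside 5.41% lower and 1.64% higher among all genes. Of the 13, 8 were lower and 5 higher, with a median of -0.39. Zfp57, a zinc finger protein that guards imprinted methylation, had 336 RPKM in MEF, 212 RPKM in Dox (-) and 53.0 RPKM in Dox (+). In Dox (+) it was 3.99-fold lower than in Dox (-), just short of the limit, and 6.34-fold lower than in MEF. Tet2, which oxidises methylated cytosine, was 4.12-fold higher in Dox (-) than in MEF. DNA methylation itself was not measured.

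Of 10 proliferation genes, 4 fell past 4-fold in Dox (+) against Dox (-), beside 5.41% of all genes. In all 9 were lower, with a median of -1.53 close to that of the members. Mki67 had 80.4, 61.3 and 3.16 RPKM in MEF, Dox (-) and Dox (+), and Top2a had 211, 114 and 19.1 RPKM. Their summed level was 1142, 669.6 and 292 RPKM, an order that Mest, Dlk1, Cdkn1c and Grb10 share, and its part in those results was not tested. Among 6 other CDK inhibitors of the CIP/KIP and INK4 groups none passed 4-fold between the knock-in libraries, and Cdkn1a, known as p21, was 5.30-fold higher in Dox (-) than in MEF. Of 7 Notch pathway genes related to Dlk1, 1 fell, Heyl, which was 4.36-fold lower at 2.98 RPKM in Dox (+). From MEF to Dox (-), 5 of 8 rose past the limit, beside 8.26% of all genes, led by Jag1 at 217 against 7.91 RPKM.

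**Figure D5:**
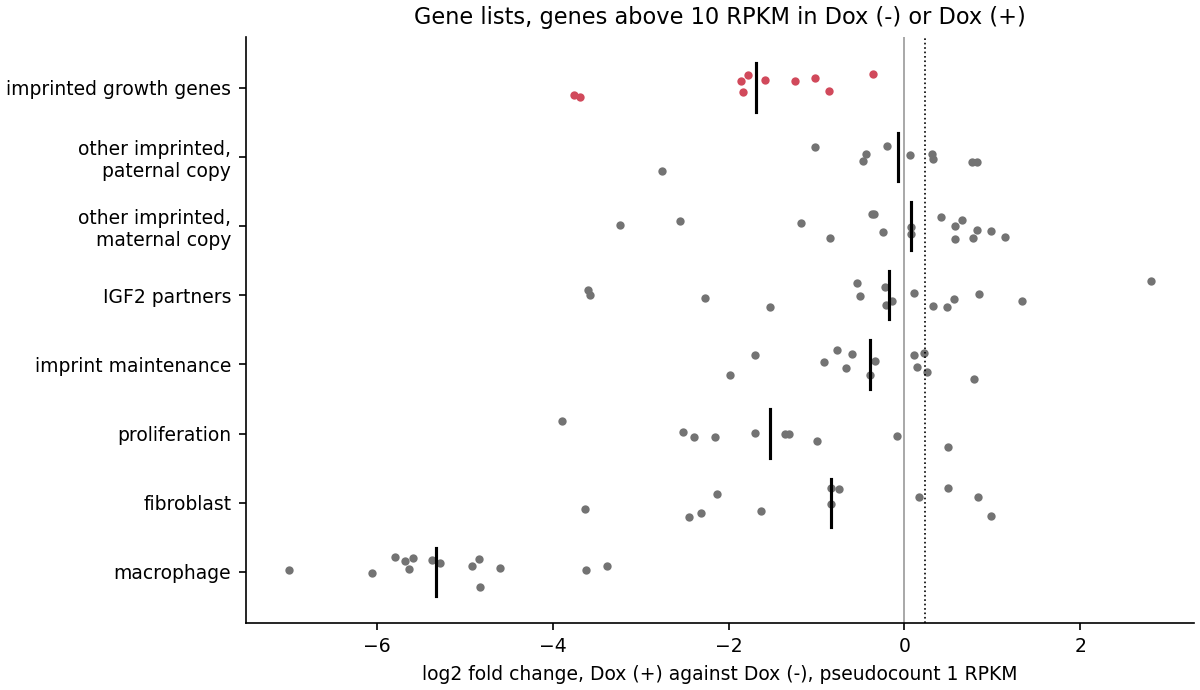
Log2 fold change in Dox (+) against Dox (-) with a pseudocount of 1 RPKM for the genes above 10 RPKM of 8 lists (1 point per gene, the list median as a bar, the median of all genes dotted). The members (red) lie below 0 with a median of -1.69, the other imprinted lists centre at -0.07 and 0.08, and the macrophage list lies lowest with a median of -5.32.

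The sums of the remaining marker lists also differed between the libraries. The 12 melanocyte markers summed to 54.3 RPKM in MEF, 567 RPKM in Dox (-) and 2481 RPKM in Dox (+), of which Gpnmb, which macrophages also express, had 47.8, 522 and 662 RPKM and Mitf 1544 RPKM in Dox (+). The markers Dct, Oca2 and Slc45a2 were below 1 RPKM in all 3 libraries. The muscle markers summed to 52.1, 725 and 2207 RPKM, of which Des had 11.6, 571 and 1805 RPKM, with Myod1, Myog and Pax7 below 1 RPKM throughout. The endothelial sums were 101, 42.6 and 73.1 RPKM, the cartilage sums 673, 108 and 127 RPKM and the epithelial sums 61.2, 9.54 and 33.6 RPKM. Their part in the member results was not tested.

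The genes nearest in pattern to 3 members were found among 11785 genes over the 3 libraries by the root mean square difference of centred log2 values. Tle4, Ccdc39 and Prr33 were nearest to H19, at 0.040 to 0.047. Clca3b, Clca3a1 and Clca3a2 were nearest to Igf2, at 0.140 to 0.189, and these near-identical relatives can share reads. Tpx2, Pnp2 and Kntc1 were nearest to Dlk1, at 0.009 to 0.024. With 3 points per gene many genes resemble any pattern.

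Only 2 choices moved the count of members between the knock-in libraries at the 4-fold threshold by over 1.5 times. Over exons sharing no base 4 of the 9 members above 10 RPKM were lower, with 4.03% of all genes, and after rescaling the libraries by the median gene 5 of 10 were, with 6.55% of all genes, because rescaling lowers Dox (+) against Dox (-). In Dox (-) against MEF over exons sharing no base only Igf2 stayed past 4-fold, with 5.96% of all genes higher.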

How the data were processed

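RNA was read from 3 libraries, MEF, Dox (-) and Dox (+), with 1 library per condition. The authors aligned poly(A) RNA-seq reads to mm10 with TopHat2 2.0.10, counted the reads of each Ensembl exon (bedtools), and deposited the counts as RPKM. The choice of the exons in the table is not given in the sources used here. Columns were matched to libraries by name, 1 column of values was not used, and the melanocyte library was not analysed here. The column named MEF does not hold the MEF values printed with the paper, so results describe the library labelled MEF.

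Exons were assigned to genes with GENCODE release 21 of the mouse annotation, in which 228132 of 234718 identifiers matched. Reads were recovered as RPKM times length times a whole-number divisor searched between 20 and 80 in units of the RPKM scale (whole within 0.01 reads, values below 200 reads). The precision of a level is the 95% Poisson interval of these reads and that of a ratio the exact conditional binomial interval, both of counting error only. A floor of 3 reads corresponds to 0.444 RPKM on 150 bases in MEF. The alternative gene level used non-overlapping exons, longest first, and a further one the median exon ratio over exons with 20 reads in the pair. Other alternatives changed the fold and expression thresholds, the pseudocount and the scaling.

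The members and lists were chosen with earlier results of these data known. The genes named are all members, the listed genes past 4-fold (at most 4 per list and direction), the 3 nearest to H19, Igf2 and Dlk1, and Mitf; Igf1r, the marker genes and the Dlk1 segment were named after values were seen. Promoters and miRNAs came from RefSeq on GRCm38.p6 and exon sequences from GENCODE transcripts. The steps were tested on simulated data. Python 3.11.15, pandas 2.3.3, NumPy 2.4.6, SciPy 1.17.1 and matplotlib 3.10.9 were used.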

Additional observations from a re-analysis of the deposited data

How the results depend on the processing

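Of 150 recomputed log2 fold changes of members, 103 stayed within the counting error, 45 moved beyond it in the same direction and 2 reversed. These were Peg3 in Dox (-) against MEF over exons sharing no base (-0.39) and Igf2r in Dox (+) against MEF by the median exon ratio (0.19). In Dox (+) against Dox (-) the count of members past the limit was 2, and it was 8 with a fold threshold of 2 (11.1% of all genes lower), 4 over exons sharing no base (4.03%) and 5 after rescaling (6.55%). In Dox (-) against MEF it was 2, and it was 1 both with a fold threshold of 8 (5.43% of all genes higher) and over exons sharing no base (5.96%). In Dox (+) against MEF it was 3, and 9 with a fold threshold of 2 (29.2% of all genes in either direction). The expression threshold and the pseudocounts tried changed no count by over 1.5 times. The planned comparison of PMel with MEF was not run, as no column carried that name. No paired analysis was possible because each condition had 1 library and no test was made. Depth limits Mest in Dox (+) (29 reads), Igf2 in MEF (12 reads) and the Dlk1 segment (29 to 89 reads).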
